A study of Caenorhabditis elegans with 2 samples.

Results

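Chaperone and chaperonin genes of Caenorhabditis elegans were taken as all protein-coding genes whose symbol is hsp-, dnj- or cct- followed by a number, together with hsf-1. The rule found 60 genes among 19973 nuclear protein-coding genes: 22 hsp genes, 29 dnj genes, 8 cct genes and hsf-1. The question was where DUXL-1, a homeodomain protein, gave chromatin immunoprecipitation peaks at the promoters of these genes. The animals were whole L4 larvae, hermaphrodites of strain OP470, whose genotype is given as unc-119(tm4063) III; wgIs470. They stably carry a duxl-1 transgene that ends in a GFP-FLAG tag, and an antibody against GFP was used for the precipitation. There were 2 biological replicates of this 1 group, and the labels give neither the age of the animals nor the promoter that drives the transgene. The control library is not analysed here, so a peak at a gene cannot be told apart from signal that other precipitations would give at the same place.

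The lists hold no read counts, so the depth behind each value is unknown. The unit throughout is the signal, the enrichment that the authors' peak caller gave to each peak, which is used within a list and not between lists. The pooled list holds 30000 candidates that include background regions, and the thresholded list holds 1980 peaks, 1965 of them nuclear, with signals of 65.0 and above. Each gene was given the strongest peak whose summit fell within 1000 bp before or 200 bp after an annotated transcript start. Candidates of the 2 replicates were ranked in their own lists, where the top 1980 reach down to a signal of 36.7 in replicate 1 and 33.8 in replicate 2. Since whole animals were used, a peak does not say in which cells the protein was bound.

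Chaperones hold other proteins in a foldable state. HSP70 and HSP90 bind clients in cycles of ATP hydrolysis, J-domain proteins (the dnj genes) bring clients to HSP70, and the CCT chaperonin is a double ring that folds actin and tubulin. Small heat shock proteins keep unfolding proteins from clumping. Many of these genes are active in every cell at normal temperature, whereas the hsp-16 genes and hsp-70 are nearly silent until heat or another stress brings in HSF-1, the heat shock transcription factor. HSF-1 acts as a trimer on heat shock elements, in which short units of GAA and TTC alternate.

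A thresholded peak lay in the promoter window of 16 of the 60 chaperone genes (26.7%, 95% Wilson interval 17.1% to 39.0%), against 6.72% of all protein-coding genes (1343 of 19973). Most of these peaks also lie in the window of a neighbouring gene. Counting only peaks in no other promoter window, 3 of 60 chaperone genes (5.0%) had one, against 3.68% of all genes, which is near the background, and the count in the constitutive core defined below was 2 of 14, against 9 with shared peaks. A further 22 chaperone genes had a candidate peak only, and 22 had neither. Counting candidates, 38 of the 60 had a promoter peak (63.3%), against 39.2% of all genes. In single replicates, 14 chaperone genes had a top candidate of replicate 1, where the share over all genes was 6.29%, and 15 had one of replicate 2, where it was 6.02%. Candidates of any rank lay at 41 chaperone genes in replicate 1, against 39.9% of all genes, and at 40 in replicate 2, against 39.3%. The 16 peaks were 16 different peaks, and 11 of them overlapped a top candidate in both replicates. Such a peak was thus present at 11 of 60 chaperone genes, against 3.84% of all genes.

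The counts by role rest on few genes. All 3 cytosolic HSP70, HSP90 and HSP110 genes had a thresholded peak (Wilson interval from 43.9%), a role that leaves out the heat-inducible hsp-70. So did 3 of the 5 organelle chaperones (60%, 23.1% to 88.2%) and 3 of the 8 CCT subunits (37.5%, 13.7% to 69.4%). Among the J-domain genes 7 of 29 had one (24.1%, 12.22% to 42.1%). None of the 7 heat-inducible genes and none of the 7 other small heat shock protein genes had one. A count of 0 of 7 allows a share of up to 42.9% when 3 counts are taken as the limit, and its Wilson interval reaches 35.4%. Both limits lie above the 6.72% of all genes, so a count of 0 of 7 cannot be told apart from the background and is no result about these genes. Of the genes taken as a constitutive core (the CCT subunits, hsp-1, hsp-90, hsp-110, hsp-3, hsp-6 and hsp-60), 9 of 14 had a thresholded peak (64.3%, 38.8% to 83.7%). This core was listed with earlier results of these data known. All its genes outside the CCT ring had a thresholded peak, and it leaves out hsp-4 and hsp-75, organelle chaperones with a candidate only. Its share therefore depends on that choice of genes. Over all members that are not heat-inducible the count was 16 of 53 (30.2%, 19.5% to 43.5%). These are descriptions with no test, and the intervals of the heat-inducible and the other members overlap.

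**Figure D1:**
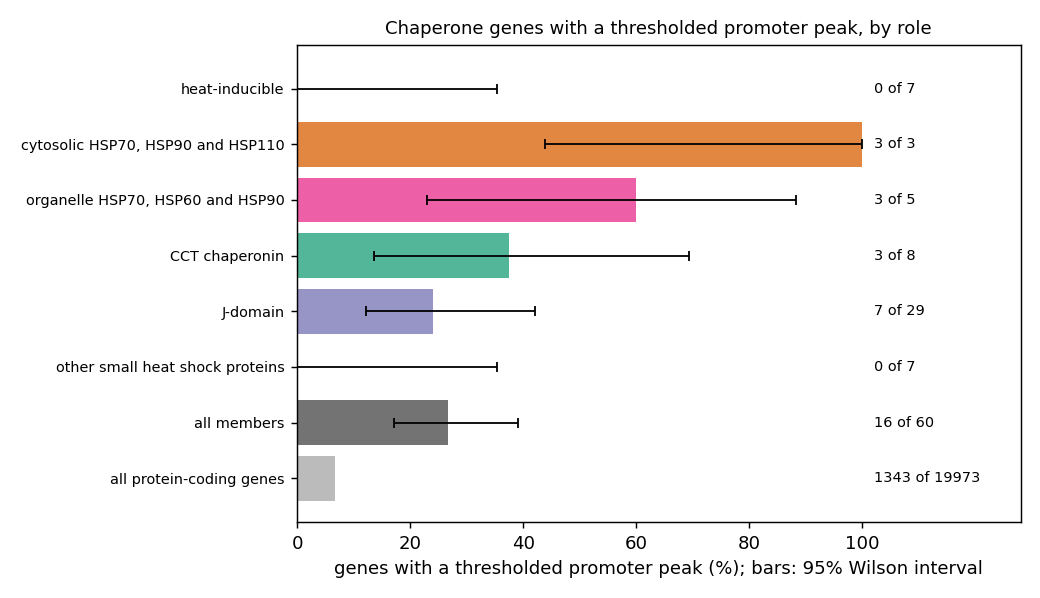
Share of genes with a thresholded promoter peak (x axis, percent) for each role, for all 60 chaperone genes and for all protein-coding genes, with counts at the right and 95% Wilson intervals as horizontal lines. The bars run from 0 of 7 heat-inducible genes, hsp-70 among them, to 3 of 3 other cytosolic HSP70, HSP90 and HSP110 genes. They stand beside 6.72% of all protein-coding genes.

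Where a chaperone gene had a thresholded peak, that peak was often among the stronger ones. The median pooled signal over the 16 genes was 153.9 (range 67.0 to 376.5), against a median of 100.5 over the 1343 genes with a thresholded peak. Of the 16, 11 lay above that all-gene median and 9 above its 75th percentile of 147. In single replicates the medians of these peaks were 83.8 in replicate 1 and 73.6 over the 15 found in replicate 2, each on its own scale. Across the 15 peaks with a candidate in both replicates, Spearman's rho of the 2 signals was 0.939, a description over peaks from the same 2 libraries.

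**Figure D2:**
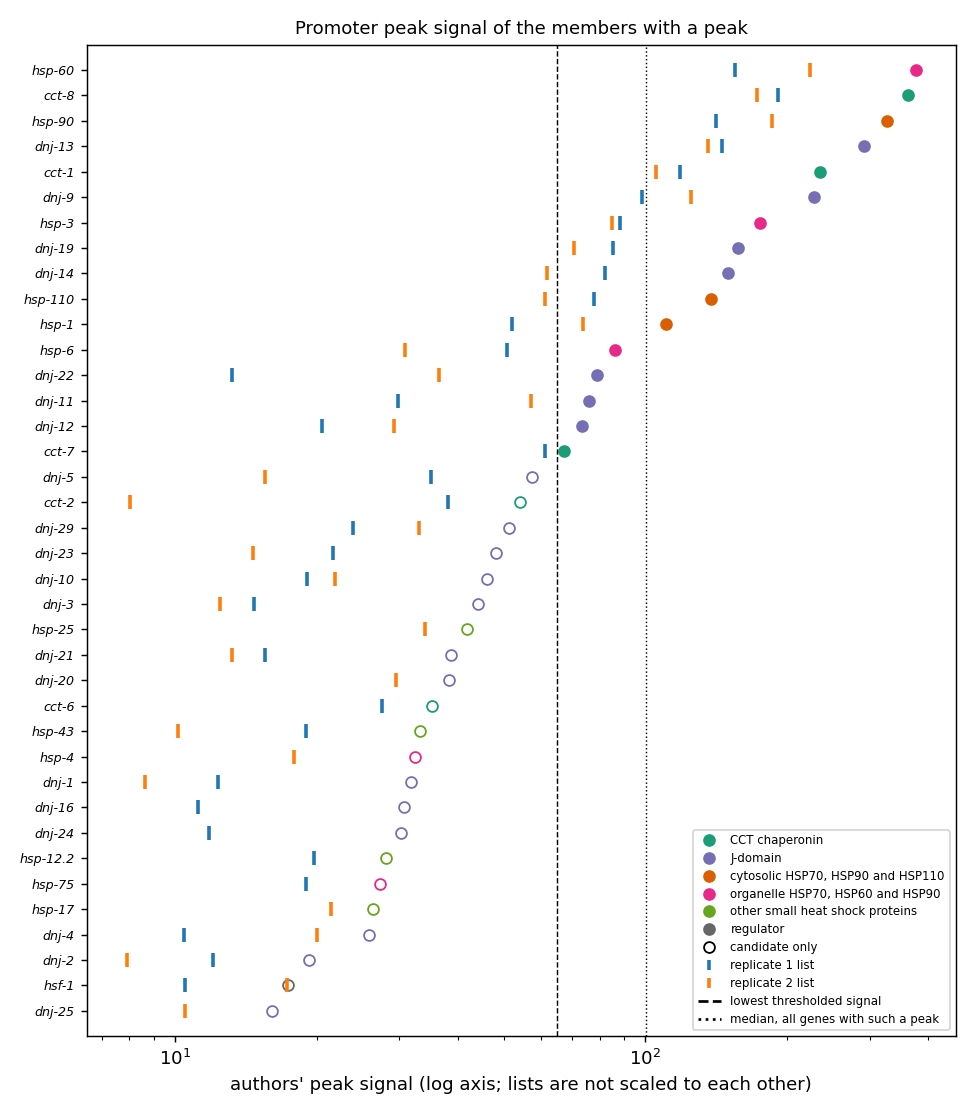
Signal (x axis, log scale) of the strongest promoter peak of each chaperone gene that has one, in the pooled list (circles coloured by role, open for candidates) and at the same place in the lists of replicate 1 (blue ticks) and replicate 2 (orange ticks). Lines mark the lowest thresholded signal (dashed) and the median over all genes with a thresholded peak (dotted). The 16 thresholded peaks run from cct-7 at 67.0 to hsp-60 at 376.5, and the candidates from dnj-25 at 16.09 to dnj-5 at 57.4.

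The cytosolic HSP70, HSP90 and HSP110 genes other than hsp-70 each had a peak. At hsp-90, which encodes the cytosolic HSP90 also known as DAF-21, the signal was 141 in replicate 1 (rank 105 of its list), 186 in replicate 2 (rank 63) and 326 in the pooled list (rank 74). Its summit lay 396 bp upstream of 1 annotated start and within an intron of a longer hsp-90 transcript. At hsp-110, whose product is a nucleotide exchange factor for HSP70, the signals were 77.9 (rank 426), 61.1 (rank 613) and 138 (rank 462). The gene for the constitutive cytosolic HSP70, hsp-1, had signals of 52.1 (rank 962), 73.6 (rank 406) and 111 (rank 731). All 3 peaks thus stood among the top candidates of both replicates, with hsp-90 the highest of the 3 in each list. The 101 bases centred on each summit are shown because these genes are targets of HSF-1 in stressed animals. Capitals mark a pair of heat shock units in hsp-90 (GAANNTTC), 3 alternating units in hsp-110, and a run of GAGAGA read on the other strand in hsp-1. The sequences are from the RefSeq genome, build WBcel235, the same assembly as ce11: hsp-90 at chrV:14685714-14685814 (+ strand), hsp-110 at chrIII:8447108-8447208 (- strand) and hsp-1 at chrIV:17278506-17278606 (+ strand).
hsp-90: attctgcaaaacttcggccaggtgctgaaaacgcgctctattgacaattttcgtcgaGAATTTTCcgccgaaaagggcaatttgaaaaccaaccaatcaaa
hsp-110: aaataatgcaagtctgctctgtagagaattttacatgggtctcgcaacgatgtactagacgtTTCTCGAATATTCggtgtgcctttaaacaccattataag
hsp-1: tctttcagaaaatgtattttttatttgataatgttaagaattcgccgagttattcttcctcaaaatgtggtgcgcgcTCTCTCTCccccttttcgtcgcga

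Among the organelle chaperones, hsp-60 had the strongest peak of all 60 genes. The gene encodes the chaperonin of the mitochondrial matrix, and its signal was 155 in replicate 1 (rank 88), 224 in replicate 2 (rank 53) and 377 in the pooled list (rank 60). The summit lay 624 bp upstream of hsp-60 but 189 bp upstream of Y22D7AL.10, which points the other way and whose RefSeq product is the small mitochondrial heat shock protein that caps the HSP-60 ring. At hsp-3, which encodes an HSP70 of the endoplasmic reticulum (BiP), the signals were 88.5 (rank 318), 85.1 (rank 298) and 176 (rank 276). The peak spans chrX:6092151-6092227 (ce11) and its summit lay 33 bp upstream of the start, the closest of the 16. At hsp-6, the mitochondrial HSP70 gene, the signal was 50.7 in replicate 1 (rank 1019) but 30.8 in replicate 2 (rank 2407, outside its top 1980), and 86.1 in the pooled list. The second BiP gene, hsp-4, had a candidate of 32.3 only, and hsp-75, a mitochondrial HSP90 gene, one of 27.3. The sequence at the hsp-60 summit, chrIII:1619068-1619168 (+ strand, RefSeq, WBcel235), is shown as that of the strongest peak; none of its bases are in capitals because it holds no match to the pairs of heat shock units or the homeodomain words that are counted further on.
hsp-60: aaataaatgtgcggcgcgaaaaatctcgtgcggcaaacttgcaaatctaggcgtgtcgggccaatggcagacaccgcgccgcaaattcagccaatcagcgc

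The subunits of the CCT ring, which work as 1 complex, did not share 1 pattern. At cct-8 the signal was 191 in replicate 1 (rank 66), 172 in replicate 2 (rank 74) and 363 in the pooled list (rank 64). For cct-1 the values were 118 (rank 148), 105 (rank 202) and 235.5 (rank 152). Both peaks were high in both replicates. The peak of cct-7 was not: it had 61.1 in replicate 1 (rank 706), no candidate in replicate 2, and 67.0 in the pooled list (rank 1863), just inside the threshold. Below the threshold lay cct-2, with a candidate of 54.2 in the pooled list (rank 2853). The candidates that overlap it had 38.1 in replicate 1 and 8.01 in replicate 2. The candidate at cct-6 was 35.2. No peak summit lay in the windows of cct-3, cct-4 and cct-5. Candidates had their summits 227 bp (signal 47.8) and 263 bp (signal 26.5) downstream of the starts of cct-4 and cct-5. The summits of the 2 strong peaks are shown for comparison, cct-8 from chrIV:1094348-1094448 (- strand) and cct-1 from chrII:8185171-8185271 (+ strand), both RefSeq, WBcel235, with a pair of heat shock units (GAANNTTC) in capitals in cct-1.
cct-8: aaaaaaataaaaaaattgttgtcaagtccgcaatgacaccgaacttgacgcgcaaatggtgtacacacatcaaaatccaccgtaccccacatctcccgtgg
cct-1: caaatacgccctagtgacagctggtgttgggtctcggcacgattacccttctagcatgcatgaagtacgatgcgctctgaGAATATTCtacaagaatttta

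Of the J-domain genes, dnj-13 had the highest signal. Its product is the partner of HSP-1 related to human DNAJB1, and the gene had 145 in replicate 1 (rank 100), 136 in replicate 2 (rank 113) and 291 in the pooled list (rank 96), at a summit 233 bp upstream of the start and within an intron of dhgd-1. At dnj-9 the signals were 98.4 (rank 244), 125 (rank 144) and 229 (rank 158). For dnj-19, a J protein of the classical class with a zinc-binding region, they were 85.6 (rank 336), 70.6 (rank 452) and 158 (rank 360). At dnj-14, related to the cysteine string proteins of synaptic vesicles, they were 82.0 (rank 378), 61.9 (rank 593) and 150.2 (rank 395). These 4 genes had top candidates in both replicates. In ce11 their peaks span chrII:11545422-11545578 (dnj-13), chrII:4851743-4851886 (dnj-9), chrV:5505203-5505313 (dnj-19) and chrX:4711950-4712229 (dnj-14). The other 3 did not. At dnj-11, an ortholog of ZRF1 known for the asymmetric division of neuroblasts, the signal was 29.8 in replicate 1 (rank 3119), 57.2 in replicate 2 (rank 690) and 75.8 in the pooled list. At dnj-22 it was 13.2 (rank 16844), 36.4 (rank 1661) and 78.8. At dnj-12, of the same class as dnj-19, it was 20.6 (rank 7197), 29.3 (rank 2683) and 73.3, so this peak was a top candidate in neither replicate.

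The other J-domain genes split into 13 with a candidate only and 9 with no peak. The strongest candidates among all 60 genes after the thresholded peaks were dnj-5 at 57.4, cct-2, dnj-29 at 51.3 and dnj-23 at 48.1; dnj-29 encodes the Sec63-like protein of the translocation channel. The weakest were dnj-25, the auxilin gene, at 16.09, hsf-1 at 17.4, dnj-2 at 19.2 and dnj-4 at 25.8. Over the 22 genes with a candidate only, the median was 32.8. No peak was found at dnj-7, the P58IPK gene, dnj-27, which encodes a reductase of the endoplasmic reticulum, or dnj-8, dnj-15, dnj-17, dnj-18, dnj-26, dnj-28 and dnj-30. Among the genes of the endoplasmic reticulum named so far, hsp-3 thus had a peak in both replicates. In the pooled list hsp-4 and dnj-29 had a candidate only, and dnj-7 and dnj-27 had no peak.

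**Figure D3:**
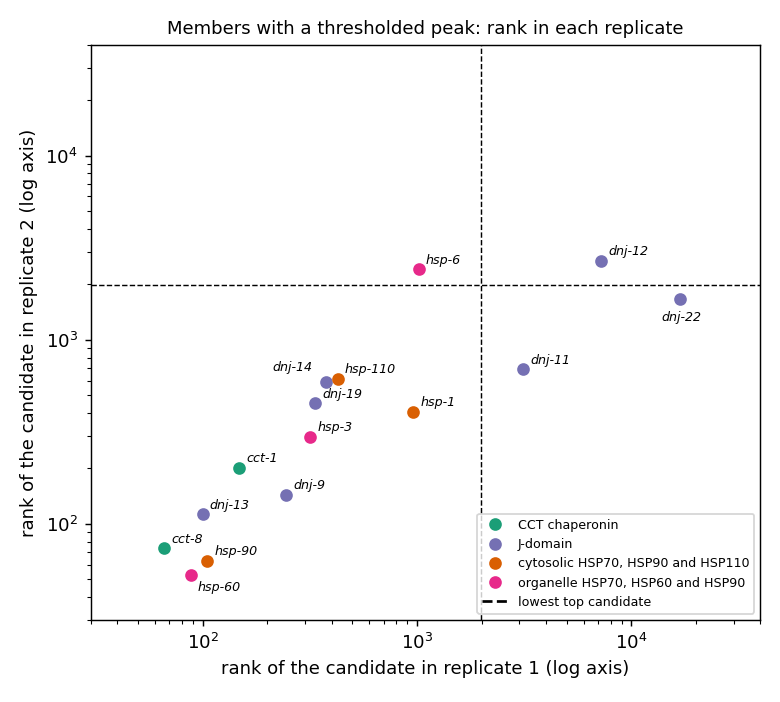
Rank of the 15 thresholded chaperone peaks with a candidate in both replicates, in the list of replicate 1 (x axis) and of replicate 2 (y axis), both log scales, coloured by role, with dashed lines at rank 1980. cct-7, with no candidate in replicate 2, is not drawn. Of the peaks drawn, 11 lie within the top 1980 of both replicates, and dnj-12 lies outside both.

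The 7 heat-inducible genes had no peak summit of either kind in their promoter windows in the pooled list. They are hsp-70 and 6 hsp-16 genes, which encode small heat shock proteins and lie in divergent pairs on chromosome V. The nearest candidates lay 1165 bp from hsp-16.1 (signal 19.8), 1456 bp from hsp-16.11 (31.2), 1514 bp from hsp-16.48 (19.8) and 1767 bp from hsp-16.49 (31.2). For hsp-16.2 and hsp-16.41 they lay 7907 bp and 7686 bp away (17.3). For hsp-70 a candidate of 19.99 lay 270 bp downstream of the start, within the gene. The nearest thresholded peaks were farther away, at 5219 bp from hsp-70 and at 63616 bp or more from each hsp-16 gene. In the lists of single replicates, hsp-16.2 and hsp-16.41 shared a candidate of 28.0 in replicate 2 (rank 2963) with none in replicate 1, and hsp-70 had 14.1 in replicate 1 (rank 15154) and 11.6 in replicate 2 (rank 18311). All of these lay below the top 1980 of their lists.

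The windows of 4 of these genes are repeated in the genome. Of the 31-base words in the promoter window, 96.5% in hsp-16.1, 93.3% in hsp-16.11, 100% in hsp-16.48 and 100% in hsp-16.49 occur more than once, and how the authors treated reads with several matches is not given in the sources used here. The part of this repetition in the missing peaks was not tested. For hsp-16.2, hsp-16.41 and hsp-70 the shares were 2.56%, 3.93% and 0%, so these 3 windows are almost wholly unique. They held no summit of a pooled candidate either, although the interval of a pooled candidate overlapped the hsp-70 window. Among members with a thresholded peak the share reached at most 2.99%. The 2 HSP70 genes F44E5.4 and F44E5.5, a divergent heat-inducible pair on chromosome II whose names lie outside the rule, shared a thresholded peak of 104 (rank 813), with 56.0 in replicate 1 and 64.1 in replicate 2, at 171 bp and 180 bp upstream of their starts. In their windows 78.0% of the words are repeated. The labels name no heat treatment of the animals.

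Heat shock elements were counted in the promoters of the members and, in shorter windows, at the summits. In the 300 bases from 250 before to 50 after the RefSeq gene start, 3 alternating units, each separated by 2 bases, were present in 7 of 7 heat-inducible genes, 3 of the 53 other members (5.66%) and 1.97% of all 19971 protein-coding promoters read. Those 3 were hsp-1, hsp-110 and dnj-12, all with a thresholded peak, so that the 3 units were in 3 of the 16 promoters of members with such a peak (18.75%). The pairs TTCNNGAA and GAANNTTC were each in 7 of 7 heat-inducible promoters. Of the 53 others, 11 held TTCNNGAA (20.8%), which is near its share of 19.0% in all promoters. GAANNTTC was in 16 of the 53 (30.2%), against 18.5% of all promoters. In the 16 promoters of members with a thresholded peak, TTCNNGAA was in 6 (37.5%) and GAANNTTC in 8 (50%). Both strands were read, each pair is the same on both, and the 3 units contain both pairs. The windows of the hsp-16 genes overlap within each divergent gene pair and share elements, so the 7 heat-inducible promoters are not independent. The promoter of hsp-16.2 is shown as that of a heat-inducible gene, chrV:1804908-1805207 on the - strand (RefSeq, WBcel235), with its 2 sets of 3 units in capitals.
hsp-16.2: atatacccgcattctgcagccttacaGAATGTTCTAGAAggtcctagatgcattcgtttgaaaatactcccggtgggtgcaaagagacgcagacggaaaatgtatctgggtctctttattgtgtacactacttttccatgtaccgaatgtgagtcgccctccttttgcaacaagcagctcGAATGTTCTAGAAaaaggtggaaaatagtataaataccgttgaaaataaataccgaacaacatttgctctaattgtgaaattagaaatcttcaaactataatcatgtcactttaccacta

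Within 50 bp of the summit, 3 units were present at 1 of the 16 member peaks, that of hsp-110, against 0.407% of the 1965 thresholded nuclear summits. TTCNNGAA was present at 2 (hsp-110 and cct-7), against 2.75%, and GAANNTTC at 3 (hsp-90, cct-1 and hsp-110), against 3.92%. In hsp-1 the 3 units stood at bases -144 to -132 from the start, while the summit lay 403 bp upstream, so the element was outside the summit window. Homeodomain words were not found at the member summits: TAATTA was at 0 of 16, against 1.58% of all summits, and TAATCA at 0 of 16, against 3.46%. TATAAA and CACGTG were likewise at 0 of 16, against 4.83% and 4.33%, and GAGAGA at 1 (hsp-1), against 21.1%. A match only says that these letters stand in the window, and a missing match that they do not. Where the count was 0 of 16, the share over all summits was at most 4.83%. Such a count cannot be told apart from the background in so few windows. It is no result about homeodomain words, or the other words with this count, at the member peaks.

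Most member peaks lay in a window shared by a pair of genes on opposite strands. The summits lay 33 to 624 bp upstream of the start, with a median of 303.5 bp, against 238 bp over all genes with a thresholded peak, and none lay downstream of its start. Of the 16 summits, 10 were intergenic, 2 were in introns and 4 were in annotated non-coding RNA genes. No snRNA, tRNA or snoRNA gene was within 100 bp of any of them. At 13 of the 16 (81.3%) the summit also lay in the window of a gene on the opposite strand, against 567 of 1343 (42.2%) over all genes with a peak. The 3 members whose peak lay in no other promoter window were dnj-9, hsp-3 and hsp-1.

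In 11 of those 13 shared peaks the summit was nearer to the neighbour's start. Besides Y22D7AL.10 at hsp-60, the nearer neighbours were mig-5 (a dishevelled protein of Wnt signalling, 198 bp from the summit, with cct-1 at 222 bp), rpn-3 (a proteasome subunit, 195 bp, with hsp-110 at 249 bp), nhr-47 (a nuclear hormone receptor, 11 bp, with dnj-19 at 385 bp) and mtx-1 (34 bp, with dnj-12 at 458 bp). Others were glit-1 at 189 bp with dnj-14, natc-1 at 47 bp with dnj-22, C37H5.5 at 192 bp with hsp-6, C47E8.4 at 279 bp with hsp-90, Y55F3AR.2 at 143 bp with cct-8 and F38A5.2 at 206 bp with dnj-11. Only dnj-13 and cct-7 were nearer to the summit than their neighbours, F54D5.9 at 640 bp and T10B5.4 at 231 bp. Which of the paired genes a peak belongs to was not tested, and for these 13 members the count cannot separate the chaperone gene from its neighbour.

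**Figure D4:**
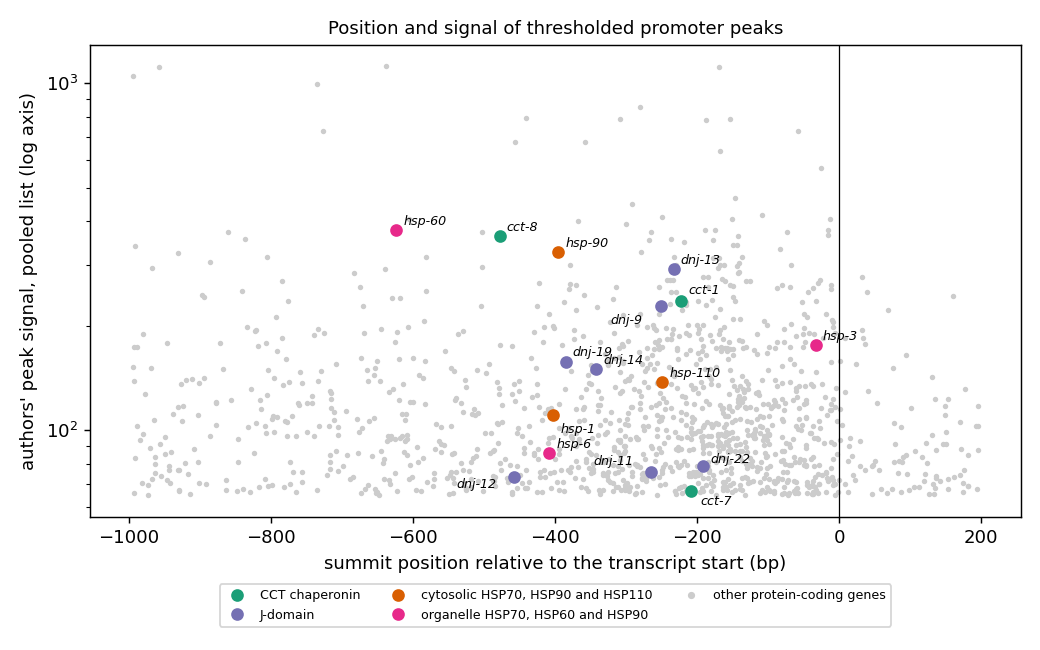
Pooled signal (y axis, log scale) against the distance of the summit from the gene's own nearest transcript start (x axis, bp, negative values upstream). The 16 chaperone genes are named and coloured by role, and other protein-coding genes with a thresholded promoter peak are in grey. The chaperone summits lie between hsp-3, 33 bp upstream, and hsp-60, 624 bp upstream.

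The 7 other small heat shock protein genes had 4 candidates and no thresholded peak. The candidates were 41.7 at hsp-25, 33.2 at hsp-43, 28.0 at hsp-12.2 and 26.4 at hsp-17. That of hsp-25 overlapped a candidate of 34.0 in replicate 2 (rank 1942) and none in replicate 1, where the window held another candidate of 12.4 (rank 18539). At hsp-12.3 a thresholded peak of 79.6 lay 549 bp from the start, inside the gene and outside the window. The regulator hsf-1 had signals of 10.5 in replicate 1, 17.3 in replicate 2 and 17.4 in the pooled list (rank 27233), with the summit 141 bp upstream of a start, so its candidate was near the bottom of the list.

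A list of further genes of the chaperone pathway was read in the same way, and 18 of its 41 genes held a thresholded promoter peak (43.9%, against 6.72% of all genes), 17 a candidate only and 6 neither. This list was chosen with earlier results of these data known, so its share is no independent support for the counts above. A count without peaks shared with other windows was not made for it. Among the co-chaperones 4 of 11 had one: sti-1, which joins HSP70 to HSP90, at 155, bag-1, a nucleotide exchange factor, at 151, ahsa-1, the activator of the HSP90 ATPase, at 125, and unc-23, a BAG-domain protein, at 77.9. Prefoldin passes new chains to CCT, and 3 of its 6 subunits had one, pfd-1 at 137, pfd-6 at 118 and pfd-3 at 74.3. Among the folding factors of the endoplasmic reticulum there were 5 of 9, the disulfide isomerases pdi-3 at 149, pdi-6 at 94.7 and pdi-2 at 65.7, calreticulin crt-1 at 133 and enpl-1, the reticulum's HSP90, at 98.5. The stress regulators had 4 of 12: ubl-5 at 135, skn-1 at 76.1, dve-1 at 75.2 and xbp-1 at 66.5. Of the regulators, hsb-1, ddl-1, ddl-2 and atf-6 had no peak. The other 2 genes were F44E5.4 and F44E5.5, described above, which share the same peak. The peaks of ahsa-1, pfd-1, pfd-6, pdi-3 and enpl-1 also lay in the window of another gene. In replicate 1 the signals at pdi-2 (13.1), skn-1 (27.2) and xbp-1 (29.8) were below its lowest top candidate, 36.7. In replicate 2 those at dve-1 (12.9), pfd-3 (19.0), pdi-6 (21.6) and pfd-6 (25.6) were below its lowest, 33.8. The rest of the 18 genes lay above these limits in both replicates.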

How the data were processed

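Peak lists in build ce11 (WBcel235) were used. The authors deposited a candidate list per replicate, a list on pooled replicates and peaks kept by their irreproducible discovery rate (IDR). The lists give a signal, a -log10 q value and a summit offset, as deposited by the authors. The -log10 q deposited by the authors was not used. The aligner is not given in the sources used here, nor are the peak caller and the IDR cut-off. Lists in ce10 were not used.

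Genes and starts came from Ensembl release 115; sequences and gene starts for motifs came from RefSeq, matched for all 60 members. Ensembl gives the symbols hsp-16.1 and hsp-16.48 to 2 genes each; the RefSeq names hsp-16.11 and hsp-16.49 are used for the second. In the further pathway list, 41 of 42 symbols were found (not hsf-2). A peak was found in a replicate when it overlapped 1 of its top 1980 candidates by at least 1 bp. The assignment was tested on simulated data: 200 of 200 peaks placed inside windows were assigned, and 0 outside. No groups exist to compare, so no p-values are given, and Wilson intervals cover counting error over genes only. The RefSeq promoter and protein tables were not used here. Sequences came from the genome.

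Every member was eligible to be named: all with a thresholded peak, all heat-inducible ones, hsf-1, all of the CCT complex, and the 4 highest and 4 lowest candidates; F44E5.4 and F44E5.5 stand in the further list. Others were named after their values were seen. Members and lists were chosen with earlier results of these data known. Alternatives were other windows, starts, overlaps and thresholds, and single replicates. Tables and figures were made with pandas 2.3.3, scipy 1.17.1 and matplotlib 3.10.9 in Python 3.11.15.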

Additional observations from a re-analysis of the deposited data

How the results depend on the processing

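The count of chaperone genes with a thresholded promoter peak was 16, and stayed between 11 and 16 under the alternatives for window, start, peak position, small RNA genes and threshold. Taking single replicates gave 14 to 15 genes (also 14 to 15 for the members that are not heat-inducible), 7 to 10 for the constitutive core and 0 for the heat-inducible genes. Without replicate 2, dnj-11, dnj-12 and dnj-22 were lost and cct-2 was gained; without replicate 1, cct-7, dnj-12 and hsp-6 were lost and dnj-20 and hsp-25 gained. The narrower window lost hsp-60 and the outermost start lost hsp-90. Counting candidates, 32 to 41 members had a peak, against 38. Among candidates, counting any overlap of the peak interval with the window gained cct-4, cct-5 and the heat-inducible hsp-70. The count of heat-inducible genes with a thresholded peak was 0 under all 7 alternatives run. In 2 alternatives chosen after seeing the data, keeping only peaks in no other promoter window left 3 members, 3 members that are not heat-inducible and 2 core members, and keeping only peaks found in both replicates left 11, 11 and 7. The median signal was 229 in the 50% of peaks with the higher signal, which by construction drops the weaker ones, and 73.6 to 87.1 in single replicates, whose signals have another scale. Peaks found in both replicates numbered 7 with a reciprocal overlap of 50%, against 11 with 1 bp; the cause was not tested. No paired analysis was possible because both samples belong to 1 group. Depth in reads is unknown, the roles hold 1 to 29 genes each, and a control library is not analysed here.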

Other observations

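Words of bases were also counted at the summits after the sequences had been read, so these are descriptions with no test. GCGC was present within 50 bp of 13 of the 16 chaperone summits (81.3%), against 742 of all 1965 thresholded nuclear summits (37.8%) and 471 of the 1028 of those that lie in a promoter window (45.8%). CCAAT was present at 5 of the 16 (31.3%), against 17.3% of all and 15.5% of the promoter summits. The median GC content of the same windows was 46.5% at the chaperone genes, against 47.5% over all thresholded nuclear summits.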
